A study of Mus musculus with 12 samples.

Results

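Expression of 10 genes for proteins of the sarcomeric Z-disc and of the muscle stretch response was described in C2i-Myog cells, a stable derivative of the mouse myoblast line C2C12. The genes were chosen by name, but earlier results of these data were known by then, so the choice was not blind. They include the cross-linkers Actn2 and Flnc, the LIM proteins Ldb3 and Csrp3, and the calsarcins Myoz1 and Myoz2. The others are the muscle ankyrin repeat proteins Ankrd1 and Ankrd2, the Xin repeat protein Xirp1 and the adaptor Sorbs2. Each of the 10 genes was measured by 1 transcript cluster, among 21789 clusters with exactly 1 gene symbol. All 10 passed a filter that removed the dimmest 25% of clusters by their mean over all arrays. It was applied only in an alternative fit, not in the main one. In this line doxycycline induces Flag-tagged myogenin (Myog) from a transgene. Cells were switched near confluence from 10% fetal calf serum to 1% horse serum with insulin and transferrin and harvested after 48 h. The 12 arrays formed 4 groups of 3: control, without either agent; Dox, with doxycycline at 0.2 µg/mL; SB, with SB203580, an inhibitor of p38α and p38β MAP kinase, at 10 µM; and SB+Dox, with both. The labels of the control arrays do not themselves mention differentiation, which was taken from the protocol given with all samples. Doxycycline was not given to cells lacking the transgene, so an effect of the drug and one of exogenous Myog cannot be told apart, and the labels do not say how many clones the line holds.

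The Z-disc is the border of the sarcomere, where α-actinin ties together the thin filaments of neighbouring units and where titin is anchored. Around this lattice sit LIM and PDZ proteins, calcineurin-binding calsarcins and filamin C, and several of these proteins are thought to sense load. The muscle ankyrin repeat proteins bind titin in the I-band, can enter the nucleus, and are known for rising in stretched or injured muscle. In the mouse embryo Myog is needed for myoblasts to become fibres, and p38 MAP kinase promotes the transcription of muscle genes by MyoD and MEF2 factors.

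The sequences just upstream of 4 of the genes are shown because these genes moved together in pairs below. Ankrd1 and Flnc fell with the inhibitor and had values overlapping control once doxycycline was added. Ankrd2 and Myoz2 rose with doxycycline with and without the inhibitor. Sorbs2 also rose in both settings, but its windows are not printed. The printed windows are thus a selection, and no link of motif to pattern was tested. Each sequence is the 250 bases before an annotated RefSeq start on GRCm38.p6, read 5′ to 3′ on the gene's strand. Capitals mark every E-box (CANNTG, the core bound by MyoD and Myog, the same on both strands) and every TEAD site (CATTCC on either strand). The windows lie at chr19:36119845-36120094 on the minus strand for Ankrd1, chr6:29433006-29433255 on the plus strand for Flnc, chr19:42035777-42036026 on the plus strand for Ankrd2 and chr3:123034988-123035237 on the minus strand for Myoz2.
Ankrd1: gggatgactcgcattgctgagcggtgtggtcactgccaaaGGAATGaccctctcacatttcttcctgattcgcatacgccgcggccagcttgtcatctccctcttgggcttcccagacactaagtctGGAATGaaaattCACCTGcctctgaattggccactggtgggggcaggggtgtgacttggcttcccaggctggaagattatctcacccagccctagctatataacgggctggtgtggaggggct
Flnc: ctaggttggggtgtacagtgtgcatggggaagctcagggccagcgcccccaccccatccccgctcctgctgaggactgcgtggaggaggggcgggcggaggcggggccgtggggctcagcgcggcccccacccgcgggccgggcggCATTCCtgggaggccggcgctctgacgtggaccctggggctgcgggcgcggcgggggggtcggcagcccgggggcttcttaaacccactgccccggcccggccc
Ankrd2: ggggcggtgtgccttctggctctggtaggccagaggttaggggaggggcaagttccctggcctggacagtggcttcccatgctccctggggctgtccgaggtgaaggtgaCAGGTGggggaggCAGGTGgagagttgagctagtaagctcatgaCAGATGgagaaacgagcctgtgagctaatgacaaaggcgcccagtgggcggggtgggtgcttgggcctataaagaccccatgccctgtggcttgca
Myoz2: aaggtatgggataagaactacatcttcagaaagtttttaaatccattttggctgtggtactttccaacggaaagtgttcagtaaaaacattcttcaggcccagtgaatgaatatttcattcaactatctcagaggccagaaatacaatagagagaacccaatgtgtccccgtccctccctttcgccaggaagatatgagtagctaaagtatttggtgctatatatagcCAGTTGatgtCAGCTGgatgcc

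The Ankrd1 window held 1 E-box, which began 111 bases before the start, and 2 TEAD sites at 210 and 123 bases. The Flnc window, from the second of its 2 annotated starts, held 1 TEAD site at 104 bases, while the window of the first held none of the motifs searched. The Ankrd2 window held 3 E-boxes at 140, 127 and 96 bases, and that of Myoz2 held 2, at 22 and 12 bases, with a MEF2 site at 33 bases. RefSeq gave 13 windows for 8 of the 10 genes. There was none for Myoz1, or for Xirp1, which also fell with the inhibitor and overlapped control in SB+Dox. An E-box was present in 9 of the 13 windows, against 66.2% of all 32851 promoter windows of that length. These included every window of Actn2, Csrp3 and Sorbs2. A TEAD site was in 2 of the 13, against 12.6%. The MEF2 site was in 1 window, against 2.92% of all, and the CArG box, the site of serum response factor, in 2 overlapping windows of Ldb3, against 1.47%. The same 2 Ldb3 windows held an AP-1 site (TGANTCA), against 6.75% of all. The E-box form CAGCTG was in 2 windows, against 13% of all, and the form CACCTG, on either strand, in 3, against 17.2%. A match describes letters only. No binding was measured here.

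The values are log2 RMA signals, in which 1 unit is a doubling. Array medians over all clusters ran from 4.86 to 5.06, and correlations between replicates of a group from 0.982, in SB, to 0.993, in control. The Myog signal (mean ± SD of 3 arrays) stood at 9.91 ± 0.26 for control and 10.37 ± 0.05 for Dox, against 7.70 ± 0.68 for SB and 8.33 ± 0.30 for SB+Dox. Whether the Myog probes detect the transgene, the endogenous gene or both was not given. All 9 skeletal muscle markers examined lay above the median cluster. Their mean, which includes Myog itself, ran from 10.35 to 10.73 over the control arrays and from 10.65 to 10.85 in Dox. It ran from 9.44 to 10.07 in SB and from 10.26 to 10.47 in SB+Dox. From SB to SB+Dox the group means of Myod1 (9.73 to 9.25) and Cdh15 (9.71 to 9.55) fell, while those of the other muscle markers rose. Of the 6 cardiomyocyte markers Nppa, Nppb and Myh6 had group means between 4.4 and 4.8, Tbx5 between 3.88 and 4.08, and Tnnt2, also expressed in immature skeletal muscle, and Nkx2-5 lay above the median cluster. All 4 endothelial, 4 adipocyte and 4 leukocyte markers lay below the median cluster. The mean of 5 fibroblast markers ran from 7.21 to 7.86 in control, from 6.18 to 6.41 in Dox, from 7.02 to 7.33 in SB and from 6.60 to 6.87 in SB+Dox. These markers did not move as one: in SB Col1a1 was lower than in control (6.79 against 9.27, adjusted p = 6.10e-05) and Dcn higher (9.05 against 7.49, adjusted p = 0.0118). Pdgfra and Tcf21 lay below the median cluster. The part of these shifts in the results below was not tested. The mean of 5 smooth muscle markers ran from 7.57 to 7.77 over the control arrays, from 7.47 to 7.67 over Dox, from 6.91 to 7.18 over SB and from 7.35 to 7.51 over SB+Dox, and its part was not tested either. In such bulk samples fewer differentiated cells and less RNA per cell cannot be told apart.

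SB against control asked what SB203580 did to these genes in cells without added Myog. Activity of p38 was not measured here, so effects through p38 and through other targets of the compound cannot be told apart. Of the 10 genes 5 fell: Sorbs2, Xirp1, Ankrd1, Flnc and Csrp3. The other 5 did not pass the test, which was limma's moderated test with Benjamini-Hochberg adjustment over all tested clusters at an adjusted p under 0.05. Among all tested clusters 3.87% were called lower and 2.51% higher. The median log2 change was -0.75 over the 10 genes and 0.03 over all clusters. Whether replicate arrays came from separate cultures is not labelled, and the p-values therefore measure only the spread among arrays, which may be technical.

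Sorbs2, an adaptor that joins actin, α-actinin and signalling proteins, had the largest change of the 10 genes. It measured 5.98, 6.31 and 6.13 in control, 3.87, 4.20 and 3.90 in SB, 6.36, 6.79 and 6.97 in SB+Dox, and 7.08, 7.40 and 8.04 in Dox (log2, replicates 1 to 3). The 4 groups did not overlap anywhere, with SB lowest, then control, SB+Dox and Dox. The SB mean was 4.43-fold under control (-2.15 ± 0.21 SE on the log2 scale, adjusted p = 2.51e-05), the 10th lowest change of all tested clusters. Its SB mean of 3.99 lay under 4.10, the 25th percentile of cluster means, and no background level was measured, so the fold may be understated. Adding doxycycline to SB raised it 6.56-fold (log2 change 2.71, SE 0.21, adjusted p = 1.17e-05), which ranked 1st among all 21789 clusters. Without the inhibitor doxycycline raised it 2.58-fold (log2 change 1.37, SE 0.21, adjusted p = 8.61e-04). SB+Dox stayed 1.74-fold below Dox (adjusted p = 0.0199), a call lost without Dox replicate 3 (log2 change -0.53, adjusted p = 0.0966) or without SB+Dox replicate 1 (-0.63, adjusted p = 0.102). Against control SB+Dox was 0.57 higher (95% CI 0.13 to 1.01, adjusted p = 0.159).

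**Figure D1:**
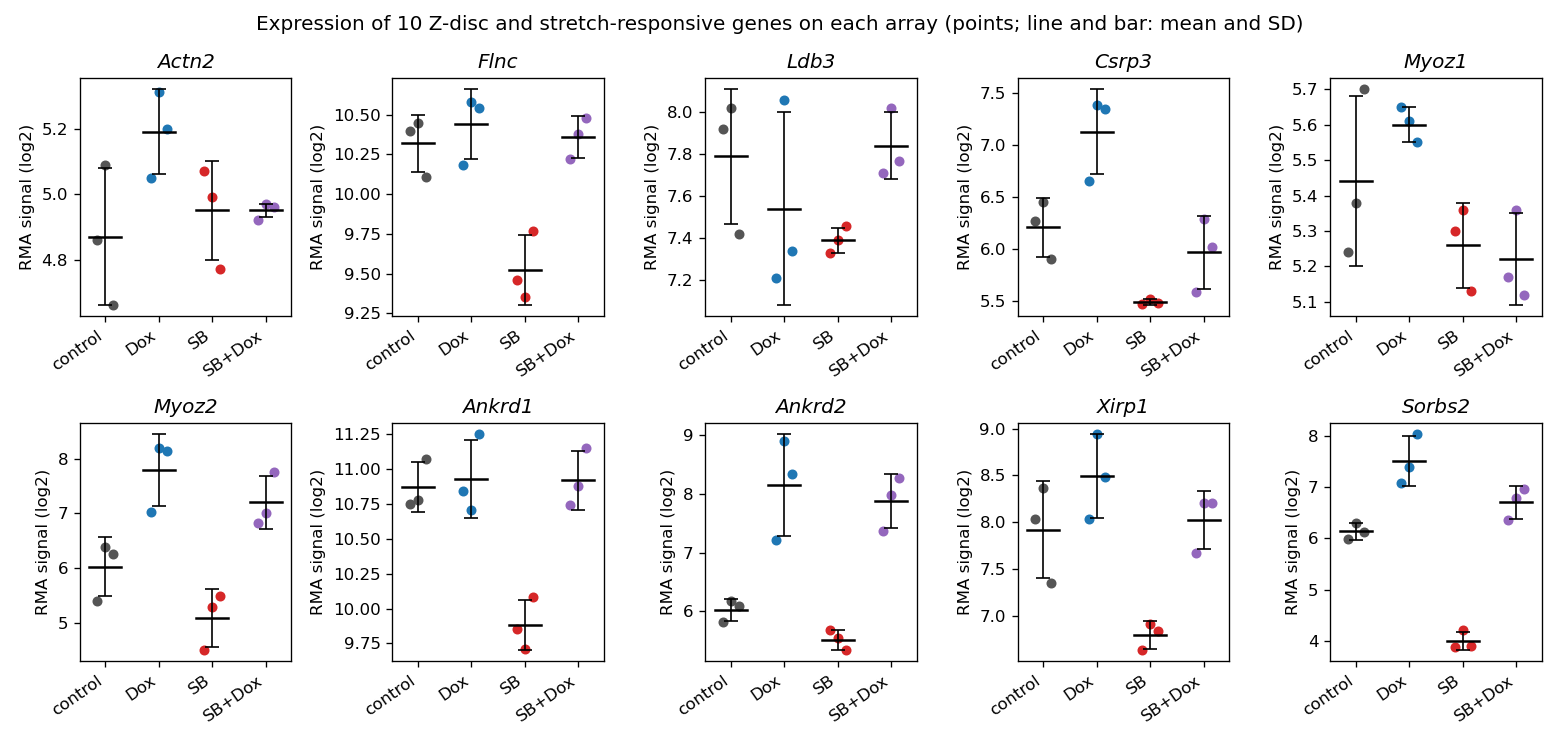
RMA signal (log2) of the 10 genes on each of the 12 arrays, by group. Points are arrays in the order of replicates 1 to 3, the line and bar are the group mean and SD, and each panel has its own axis. Sorbs2, Ankrd1, Flnc, Xirp1, Csrp3 and Ankrd2 have all 3 SB arrays below every other array. For Ankrd2 the change in SB against control did not pass. The share of all clusters with such a separation was not computed.

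Of the cross-linkers, Flnc passed in 2 comparisons and Actn2 in none, and the difference between the genes was not tested. Flnc, which encodes filamin C, an actin cross-linker of Z-discs and the muscle membrane, measured 10.40, 10.45 and 10.11 in control, 10.18, 10.58 and 10.54 in Dox, 9.46, 9.35 and 9.77 in SB, and 10.22, 10.38 and 10.48 in SB+Dox. Its SB arrays lay below all others, and the remaining groups overlapped. With SB alone Flnc was 1.73-fold under control (-0.79 ± 0.14 SE, adjusted p = 0.00264) and 1.78-fold higher in SB+Dox than in SB (adjusted p = 0.00201). SB+Dox differed from control by 0.04 (95% CI -0.25 to 0.34, adjusted p = 0.94), and Dox from control by 0.12 (95% CI -0.18 to 0.41, adjusted p = 0.846). Actn2, an α-actinin of muscle Z-discs, had group means from 4.87 in control to 5.19 in Dox and passed in no comparison. These levels lie by the array medians and were not shown to be above background. Its most extreme change, Dox against control, was 0.31 (95% CI 0.06 to 0.56, adjusted p = 0.182).

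Csrp3, the muscle LIM protein that binds α-actinin and telethonin, measured 6.27, 6.45 and 5.91 in control, 6.66, 7.39 and 7.35 in Dox, 5.47, 5.52 and 5.48 in SB, and 5.59, 6.29 and 6.02 in SB+Dox. SB lay below all other arrays and Dox above them, while control and SB+Dox overlapped. The SB arrays averaged 1.64-fold under control (-0.72 ± 0.20 SE, adjusted p = 0.0453). That call was lost without control replicate 1 or 2, any 1 of the SB replicates or SB+Dox replicate 3 (adjusted p from 0.0544 to 0.186). Dox raised Csrp3 1.90-fold over control (log2 change 0.92, SE 0.20, adjusted p = 0.0114), which did not pass without control replicate 3, Dox replicate 2 or Dox replicate 3 (adjusted p = 0.0609, 0.064 and 0.0682). With both agents it was 2.24-fold under its Dox level (-1.17 ± 0.20 SE, adjusted p = 0.0012). The change from SB to SB+Dox, 0.47 (95% CI 0.05 to 0.90), had adjusted p = 0.187. Ldb3, also called ZASP or Cypher, a PDZ-LIM protein that holds α-actinin at the Z-disc, had group means between 7.39, for SB, and 7.84, for SB+Dox, with control at 7.79 and Dox at 7.54, with neighbouring groups overlapping. It passed in no comparison; SB against control was -0.40 (95% CI -0.81 to 0.02, adjusted p = 0.313). Without Dox replicate 2, which at 8.06 stood above the other Dox arrays at 7.21 and 7.34, SB+Dox was 0.56 above Dox (adjusted p = 0.0431).

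The calsarcins tether calcineurin to α-actinin, Myoz1 mainly in fast fibres and Myoz2 in heart and slow fibres. Myoz2 measured 5.40, 6.39 and 6.26 in control, 7.03, 8.19 and 8.14 in Dox, 4.49, 5.29 and 5.49 in SB, and 6.83, 7.01 and 7.76 in SB+Dox. Both groups with doxycycline lay above both without it, and within each of those pairs the groups overlapped. Doxycycline raised it 4.33-fold in the presence of SB (log2 change 2.11, SE 0.35, adjusted p = 0.00186) and 3.41-fold in its absence (log2 change 1.77, SE 0.35, adjusted p = 0.00575). The change in SB against control, -0.93 (95% CI -1.67 to -0.19), had adjusted p = 0.152. SB+Dox was 1.18 above control (95% CI 0.45 to 1.92, adjusted p = 0.0646). This passed without Dox replicate 1 (adjusted p = 0.0349) or SB replicate 1 (0.0489), with array weights (0.0144) and with an eBayes trend (0.0488). With a block for the replicate number, SB against control passed (adjusted p = 0.00216), as did SB+Dox against control (4.83e-04). The numbers were taken to pair only SB and SB+Dox. Myoz1 had group means from 5.22 in SB+Dox to 5.60 in Dox, near the median cluster, with neighbouring groups overlapping. With both agents it was 1.31-fold under its Dox level (-0.39 ± 0.12 SE, adjusted p = 0.0495). This call was lost without control replicate 2, any 1 of the Dox replicates, SB replicate 1 or 2, or SB+Dox replicate 1 or 3 (adjusted p from 0.0577 to 0.174).

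Ankrd1 and Ankrd2 encode the cardiac and the skeletal muscle ankyrin repeat proteins. Ankrd1, also a target gene of YAP and TEAD factors, measured 10.75, 10.78 and 11.07 in control, 10.84, 10.71 and 11.25 in Dox, 9.85, 9.71 and 10.08 in SB, and 10.74, 10.88 and 11.15 in SB+Dox. All 3 SB arrays lay below the other 9, which overlapped among groups. With SB alone it was 1.98-fold under control (-0.98 ± 0.15 SE, adjusted p = 0.00121) and 2.06-fold higher in SB+Dox than in SB (adjusted p = 9.08e-04). SB+Dox differed from control by 0.06 (95% CI -0.27 to 0.38) and from Dox by -0.01 (95% CI -0.33 to 0.32), and Dox from control by 0.07 (95% CI -0.26 to 0.39). None of these 3 passed (adjusted p = 0.918, 0.987 and 0.938).

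Ankrd2 measured 5.82, 6.18 and 6.09 in control, 7.21, 8.90 and 8.33 in Dox, 5.68, 5.55 and 5.34 in SB, and 7.37, 7.98 and 8.26 in SB+Dox. The arrays with doxycycline all lay above those without it, and the SB arrays lay just below the control arrays. Doxycycline raised it 5.09-fold with the inhibitor (log2 change 2.35, SE 0.31, adjusted p = 5.67e-04) and 4.35-fold without it (log2 change 2.12, SE 0.31, adjusted p = 7.62e-04), ranking 6th and 7th highest among all tested clusters. SB+Dox was 3.59-fold above control (log2 change 1.84, SE 0.31, adjusted p = 0.00262) and differed from Dox by -0.28 (95% CI -0.95 to 0.40, adjusted p = 0.705). SB against control was -0.50 (95% CI -1.17 to 0.17, adjusted p = 0.471).

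The related genes were also compared within each array, a comparison chosen after the values were seen. Ankrd2 minus Ankrd1 was -4.84 ± 0.21 in control and -4.36 ± 0.33 in SB, and with doxycycline it was -2.79 ± 0.92 in Dox and -3.05 ± 0.28 in SB+Dox (log2, SD of 3 arrays). Myoz2 minus Myoz1 was 0.58 ± 0.42 in control, -0.18 ± 0.59 in SB, 2.19 ± 0.69 in Dox and 1.99 ± 0.57 in SB+Dox. These differences were larger in every array with doxycycline than in any array without it. Ankrd2 and Myoz2 by themselves showed the same separation, as given above. The share of all gene pairs with such a separation was not computed. An exact two-sided permutation test of 3 against 3 arrays cannot give a p under 0.1, so it could not decide these differences. For both pairs it gave 0.2 in SB against control. It gave 0.1 in SB+Dox against SB, Dox against control and SB+Dox against control. A difference of probe signals does not give the relative levels of the genes.

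Xirp1, whose protein Xin binds filamin C and Z-disc actin and marks muscle repair, measured 8.03, 8.37 and 7.35 in control, 8.03, 8.94 and 8.48 in Dox, 6.63, 6.91 and 6.84 in SB, and 7.67, 8.21 and 8.20 in SB+Dox. The SB arrays lay below all others, and the other groups overlapped. The SB arrays averaged 2.18-fold under control (-1.12 ± 0.25 SE, adjusted p = 0.0117), which did not pass without control replicate 2 (adjusted p = 0.0604) or SB replicate 1 (0.0531). In SB+Dox it was 2.35-fold higher than in SB (log2 change 1.23, SE 0.25, adjusted p = 0.00652). SB+Dox differed from control by 0.11 (95% CI -0.42 to 0.63), and Dox from control by 0.57 (95% CI 0.05 to 1.09, adjusted p = 0.279).

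SB+Dox against SB asked what doxycycline changed in the presence of SB203580. Of the 10 genes 6 rose, namely Sorbs2, Ankrd2, Myoz2, Xirp1, Ankrd1 and Flnc, and all 6 calls held with every array left out in turn. Among all tested clusters 4.4% were called higher and 2.71% lower. The median log2 change was 0.94 over the 10 genes and -0.04 over all clusters. Myog in these 2 groups differed by 0.64 (SE 0.25, adjusted p = 0.157).

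Dox against control asked the same without the inhibitor. Ankrd2, Myoz2, Sorbs2 and Csrp3 rose, 4 of 10 genes, where 1.43% of all tested clusters were called higher and 3.88% lower. The median was 0.44 over the 10 genes and 0.01 over all clusters. Of the 4, Csrp3 did not hold in every fit, as given above. Myog differed between these 2 groups by 0.46 (SE 0.25, adjusted p = 0.467). Of the fibroblast markers Dcn had a mean of 7.49 in control and 4.85 in Dox, and Col1a1 of 9.27 and 7.06; their part in the result was not tested.

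**Figure D2:**
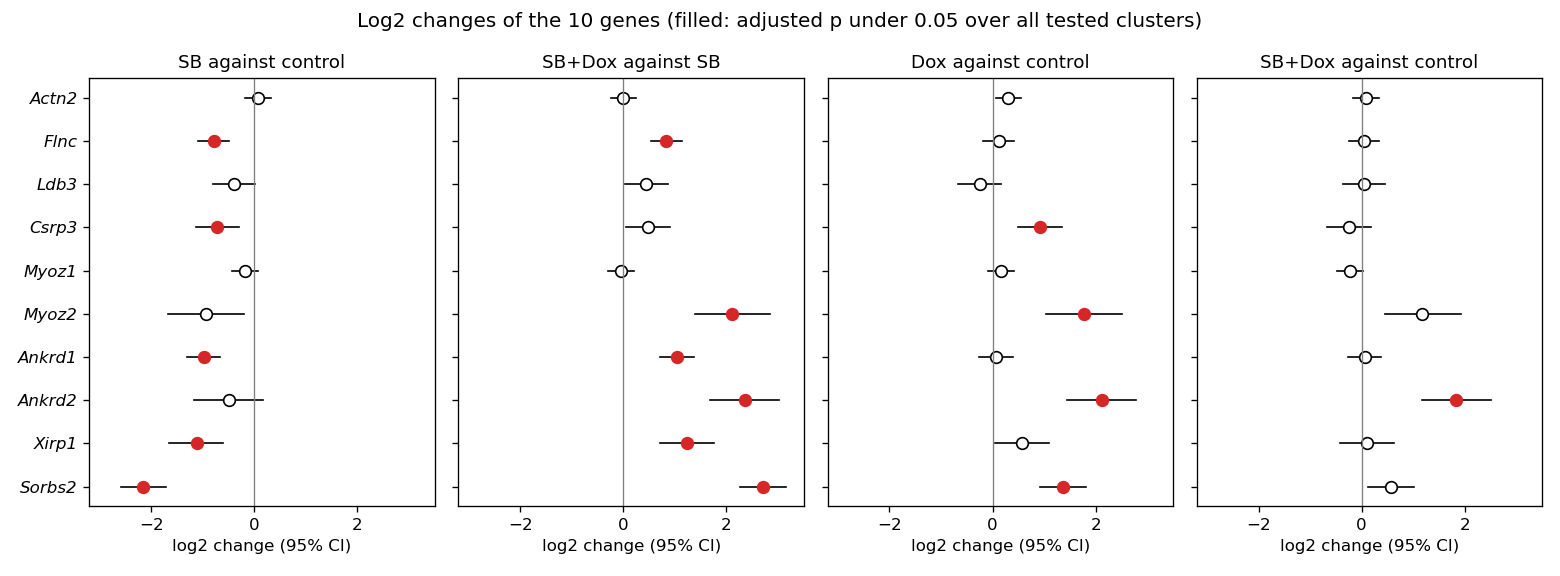
Log2 changes of the 10 genes with 95% confidence intervals in 4 comparisons of 3 against 3 arrays. Filled points have an adjusted p under 0.05 over all tested clusters. In SB+Dox against control Ankrd2 alone is filled, at 1.84, while Flnc, Ldb3, Ankrd1 and Actn2 lie within 0.08 of 0.

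In SB+Dox against control, which compares the cells given both agents with those given neither, only Ankrd2 of the 10 genes passed, where 2.84% of all tested clusters were called higher and 2.42% lower. The median was 0.07 over the 10 genes and -0.02 over all clusters. Myog was 1.58 lower in SB+Dox than in control (SE 0.25, adjusted p = 0.00162). In SB+Dox against Dox, the effect of the inhibitor with doxycycline present, 3 of the 10 genes fell, Csrp3, Sorbs2 and Myoz1, where 3.43% of all tested clusters were called lower and 6.97% higher. The median was -0.33 over the 10 genes and -0.03 over all clusters.

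The interaction, which subtracts Dox minus control from SB+Dox minus SB, passed for 2 of the 10 genes, where 0.725% of all tested clusters were called higher and 0.17% lower. It was 1.35 for Sorbs2 (SE 0.29, adjusted p = 0.0471) and 0.98 for Ankrd1 (SE 0.21, adjusted p = 0.0498). Leaving out single arrays took the adjusted p of Ankrd1 past the threshold in all cases but Dox replicate 3 and SB replicate 3, up to 0.149, and that of Sorbs2 in all cases but Dox replicate 3 and SB+Dox replicate 1, up to 0.13. For Ankrd2 and Myoz2 the interaction was 0.23 (95% CI -0.72 to 1.18) and 0.34 (95% CI -0.70 to 1.39), intervals that leave room for sizeable differences either way. That of Flnc was 0.72 (adjusted p = 0.123), and it passed without SB replicate 3 (0.84, adjusted p = 0.042).

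**Figure D3:**
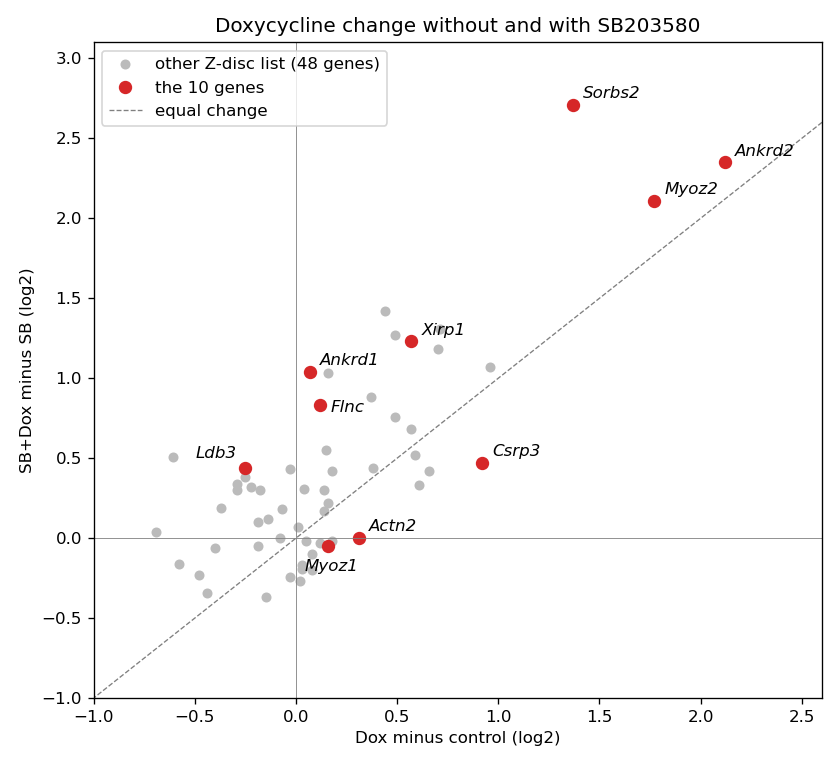
Doxycycline change without SB203580 (Dox minus control, x axis, log2) against that with it (SB+Dox minus SB, y axis, log2) for the 10 genes in red and 48 other Z-disc genes in grey; the axes share no arrays. Ankrd2 and Myoz2 lie near the line of equal change, Sorbs2, Ankrd1, Flnc, Ldb3 and Xirp1 further above it, and Csrp3, Actn2 and Myoz1 below it.

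Over the 12 arrays, which share the 4 groups, the 10 genes correlated with each other at coefficients from -0.22, for Ldb3 and Myoz1, to 0.94, for Myoz2 and Ankrd2. Flnc and Xirp1 correlated at 0.93, while Ankrd1 and Ankrd2 did so at 0.66 and Myoz1 and Myoz2 at 0.34. Among all other genes the pattern most like that of Ankrd2 was that of Ankrd23, the remaining muscle ankyrin repeat protein (Pearson's r = 0.966), and that most like Sorbs2 was Rnf11 (r = 0.986). Xirp1 was followed most closely by Rgp1 (0.979) and by Trim54, a ubiquitin ligase gene (0.974). Ankrd1 was followed by Bcat1 (0.98) and Nars (0.973), Flnc by Macf1 (0.969), Myoz2 by Hapln4 (0.977) and Csrp3 by Vav2 (0.972). The nearest genes to Ldb3, Myoz1 and Actn2 were Cand2 (0.912), Pacsin1 (0.919) and Tsc1 (0.888). Such coefficients describe 12 arrays and were not tested.

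A list of 51 other genes of the Z-disc and its surroundings had 48 measured. In SB against control 15 fell, 2 rose and 31 did not pass, where 3.87% of all tested clusters fell and 2.51% rose. The median of the 48 was -0.27. The lowest were Neb, the nebulin of thin filaments (-1.25, adjusted p = 0.0349), the non-muscle α-actinin Actn1 (-0.97, adjusted p = 5.74e-04), titin (Ttn, -0.96, adjusted p = 0.0148) and the actin-binding Nexn (-0.95, adjusted p = 0.0301). The 2 that rose were Lmcd1, a LIM protein (0.66, adjusted p = 0.0211), and the calcineurin regulator Rcan1 (0.53, adjusted p = 0.0182). Actn1 passed in every fit, whereas Neb, Ttn and Nexn did not pass without control replicate 1 or 2 or SB replicate 1 or 2 (adjusted p from 0.0594 to 0.16). Lmcd1 did not pass without control replicate 1 or 3 or SB replicate 2 or 3, nor Rcan1 without control replicate 3 or SB replicate 1 or 2 (adjusted p from 0.0594 to 0.094). The count of called genes was 9 without control replicate 1 or SB replicate 2 and 10 without SB replicate 1 or control replicate 2.

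From SB to SB+Dox 11 of the 48 rose and 1 fell, where 4.4% of all tested clusters rose and 2.71% fell. The median of the 48 was 0.26. Xirp2, the second Xin repeat gene, rose by 1.42 (adjusted p = 6.97e-04), the filamin-binding Filip1 by 1.31 (adjusted p = 6.91e-04), Smpx by 1.27 (adjusted p = 0.0269) and Ttn by 1.18 (adjusted p = 0.00399). Csrp2, a LIM protein of smooth muscle, fell by 0.37 (adjusted p = 0.025). The Smpx call was lost without SB replicate 1 or 2 or SB+Dox replicate 2 or 3 (adjusted p from 0.0679 to 0.14), and that of Csrp2 without SB replicate 1 or 2 or any 1 of the SB+Dox replicates (0.0644 to 0.102) and with arrays centred on their median (0.0569). The count of called genes was 7 without SB replicate 1 or SB+Dox replicate 2 and 6 without SB+Dox replicate 3.

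In Dox against control 5 of the 48 rose and 6 fell, where 1.43% of all tested clusters rose and 3.88% fell. The median of the 48 was 0.04. Ankrd23 was 0.96 higher (adjusted p = 0.0127), Filip1 0.71 (adjusted p = 0.0307), Pdlim1, a PDZ-LIM protein, 0.66 (adjusted p = 0.00657) and Actn3, the α-actinin of fast fibres, 0.61 (adjusted p = 0.0267). Fhl2, a four-and-a-half LIM domain protein, fell by 0.69 (adjusted p = 0.00189), its relative Fhl1 by 0.61 (adjusted p = 0.0124), Csrp1 by 0.58 (adjusted p = 0.00251) and filamin A (Flna) by 0.48 (adjusted p = 0.0107). Pdlim1, Fhl2 and Csrp1 passed in every fit. Leaving out control replicate 3, Dox replicate 2 or Dox replicate 3 ended the calls of Ankrd23 (adjusted p from 0.0598 to 0.0662), Actn3 and Filip1. Actn3 was also lost without control replicate 1 and Filip1 without control replicate 1 or 2 (together 0.0557 to 0.143). Flna was lost without control replicate 2 or Dox replicate 2, and Fhl1 without control replicate 1 or 2 or Dox replicate 1 (adjusted p from 0.0547 to 0.066). The count of called genes was 5 without control replicate 1 or Dox replicate 2 and 7 without control replicate 3 or Dox replicate 3.

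In SB+Dox against control 6 of the 48 were higher and 7 lower, where 2.84% of all tested clusters were higher and 2.42% lower. The median of the 48 was 0.00. Rcan1 stood 0.83 higher (adjusted p = 9.89e-04), while Csrp2 was 0.90 lower (adjusted p = 4.98e-05) and Flna and Fhl2 0.68 lower each (adjusted p = 0.00112 and 0.00238), and these 4 passed in every fit. Ankrd23 was 0.82 higher (adjusted p = 0.0352), Xirp2 0.79 (adjusted p = 0.0303), Filip1 0.77 (adjusted p = 0.0211), and Actn1 was 0.65 lower (adjusted p = 0.011). Each of these 4 lost its call without SB+Dox replicate 2, and 3 of them, all but Xirp2, without control replicate 2. Ankrd23, Xirp2 and Filip1 also lost it without control replicate 3 or SB+Dox replicate 3, Ankrd23 and Filip1 without control replicate 1, Ankrd23 without SB replicate 2 and Actn1 without SB+Dox replicate 1 (adjusted p over all of these from 0.0506 to 0.167). The count of called genes was 8 without control replicate 1 or SB+Dox replicate 1, 7 without control replicate 2 and 6 without SB+Dox replicate 2 or 3.

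In SB+Dox against Dox 5 were higher and 4 lower, where 6.97% of all tested clusters were higher and 3.43% lower. The median of the 48 was -0.05. Rcan1 was 1.00 higher there (adjusted p = 8.83e-05), the focal adhesion protein gene Zyx 0.62 higher (adjusted p = 2.49e-04) and Csrp2 0.75 lower (adjusted p = 9.00e-05), again in every fit. Lmcd1 was 0.74 higher (adjusted p = 0.00663) and the actin-associated Synpo2l 0.61 lower (adjusted p = 0.00682), in every fit as well. The ubiquitin ligase gene Trim55 was 0.70 higher (adjusted p = 0.0199), its relative Trim63 0.39 lower (adjusted p = 0.0314) and Synpo2 0.50 lower (adjusted p = 0.0174). Leaving out Dox replicate 3, SB+Dox replicate 2 or SB+Dox replicate 3 ended the calls of Trim55 and Trim63, as did leaving out Dox replicate 1 for Trim55 and Dox replicate 2 for Trim63. Synpo2 was lost without Dox replicate 2 or SB+Dox replicate 1 (adjusted p over these 3 genes from 0.0703 to 0.148). The interaction passed for 2 of the 48, Fhl1 (1.12, adjusted p = 0.0184) and Sorbs3, a vinexin (0.55, adjusted p = 0.0387). Its median over the 48 was 0.25, and 0.725% of all tested clusters were called higher and 0.17% lower. Fhl1 did not pass without control replicate 1, SB replicate 2 or SB+Dox replicate 3 (adjusted p from 0.0512 to 0.0615), nor Sorbs3 without any 1 array other than SB replicate 3 (0.0626 to 0.118).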

How the data were processed

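The deposited table gave each transcript cluster a log2 RMA signal on every array. Per the submitters' processing notes the authors made these log2 values with RMA and Affymetrix Expression Console, whose versions are not given in the sources used here, and per the labels total RNA was labelled by a whole-transcript sense assay. RMA subtracts background, aligns the arrays' distributions and summarises probes, so levels of different genes are not comparable. Of 35557 clusters 21789 had exactly 1 symbol in GEO's platform annotation, 1621 several and 12147 none, and 21698 were matched to RefSeq by Entrez identifier.

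All 12 arrays were fitted with limma 3.58.1 in R 4.3.3 with 1 mean per group and eBayes without trend (8 residual and 6.56 prior degrees of freedom). P-values were adjusted by Benjamini-Hochberg over the 21789 clusters within each comparison, and adjusted p under 0.05 was called with no minimum fold. The fit was also tested on data simulated from the array values. Independent normal noise was drawn for each cluster, and 50 clusters per fold size were lowered, in SB only. In SB against control 60% of clusters lowered 1.5-fold were recovered, 92% of those lowered 2-fold and 100% of those lowered 4-fold. Of 21589 unchanged ones 8 were called. Noise shared between arrays was not simulated, so these shares may differ for the real arrays. Arrays have no depth, and their number limits the precision.

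Genes named were the 10 members in all comparisons, the called genes of the other Z-disc list with the 4 highest and 4 lowest changes in each comparison and, for each member, genes from the 3 correlating best over the arrays. Predicted, microRNA, small nucleolar RNA and olfactory receptor genes were left out of the last. Members and lists were chosen with earlier results of these data known. Array numbers were checked for pairing by correlating deviations from group means. Same-numbered SB and SB+Dox arrays correlated at 0.44, 0.19 and 0.49, so the numbers were taken to pair these 2 groups. The values given come from the fit without pairing, and the block for the replicate number is an alternative. In every other pair of groups the lowest was 0.09 or less. Alternatives were a block for the replicate number, median centring, quantile normalisation, array weights, an eBayes trend, a dim filter, testing every cluster, and leaving out each array. The other 3 genes of the list of 51 are not reported here.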

Additional observations from a re-analysis of the deposited data

Results flagged for a closer look

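The doxycycline change with the inhibitor differed from that without it, by the interaction term, for 4 of the genes described. The difference was 1.35 for Sorbs2 (2.71 with the inhibitor and 1.37 without it, adjusted p = 0.0471) and 0.98 for Ankrd1 (1.04 and 0.07, adjusted p = 0.0498). In the other Z-disc list it was 1.12 for Fhl1 (0.51 and -0.61, adjusted p = 0.0184) and 0.55 for Sorbs3 (0.19 and -0.37, adjusted p = 0.0387). With every cluster tested none of the 4 passed (adjusted p = 0.2, 0.191, 0.113 and 0.116). Fhl1 also failed without control replicate 1, SB replicate 2 or SB+Dox replicate 3 (0.0512, 0.0615 and 0.0516), and Sorbs3 without any array but SB replicate 3 (0.0626 to 0.118).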

How the results depend on the processing

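Of the 21 calls made on the 10 genes, 14 held in all 7 alternatives and with each of the 12 arrays left out. The other 7 were SB against control for Csrp3 and Xirp1, SB+Dox against Dox for Myoz1 and Sorbs2, Dox against control for Csrp3, and the interaction for Ankrd1 and Sorbs2. With every cluster of the table fitted and tested, all 7 were lost. That fit changes the variance estimate shared across clusters as well as the number of clusters in the adjustment. Members called then numbered 3 in SB against control, 1 in SB+Dox against Dox and 0 in the interaction by limma, where 4 had an unadjusted p under 0.05 in the main setting. The other Z-disc list then had 9 called in SB against control, 7 in SB+Dox against SB, 6 in Dox against control, 6 in SB+Dox against control and 0 in the interaction, where 16 had such an unadjusted p. Quantile normalisation left 0 members and 1 list gene with an interaction and called 15 list genes in SB+Dox against Dox. Array weights called 15 there, 7 list genes in the interaction and 2 members in SB+Dox against control. An eBayes trend also called 2 members in that comparison, and median centring left 1 in the interaction. The cause was not tested.

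With the replicate number as a block, members called in SB+Dox against control went from 1 to 3, with Myoz2 (adjusted p = 4.83e-04) and Sorbs2 (0.0497) added. The block also called Myoz2 in SB against control (0.00216) and in SB+Dox against Dox (0.0248) and lost Myoz1 in the latter (0.0531). It changed no call of the 10 genes in SB+Dox against SB, the 2 groups whose numbers paired. Among the other pairs of groups, each array correlated best with its own number only for Dox and SB+Dox. The alternative of other clusters of a gene gave no value, because each gene had 1.

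Leaving out single arrays gave 3 to 5 members called in SB against control, 1 to 3 in SB+Dox against Dox, 1 to 2 in SB+Dox against control and 0 to 2 in the interaction. For the list it gave 9 to 19 in SB against control, 6 to 15 in SB+Dox against SB, 5 to 12 in Dox against control, 6 to 14 in SB+Dox against control and 0 to 2 in the interaction. Some values that were not called changed sign near 0. With array weights these were Actn2 in SB+Dox against SB (-0.03) and Flnc (-0.03), Ldb3 (-0.03) and Xirp1 (-0.02) in SB+Dox against control. Myoz1 in SB+Dox against SB was 0.02 with median centring and 0.02 with quantile normalisation. Leaving out arrays moved Actn2 from -0.03 to 0.18 in SB against control, and in SB+Dox against SB Actn2 from -0.08 to 0.07 and Myoz1 from -0.12 to 0. Ankrd1 ran from -0.09 to 0.18 in Dox against control and from -0.12 to 0.15 in SB+Dox against Dox, where Ankrd2 ran from -0.74 to 0.10. In SB+Dox against control Actn2 ran from -0.03 to 0.19, Ankrd1 from -0.05 to 0.16, Flnc from -0.07 to 0.11, Ldb3 from -0.14 to 0.16 and Xirp1 from -0.18 to 0.34. The interaction ran from -0.24 to 0.61 for Ankrd2 and from -0.03 to 0.65 for Myoz2.

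Over all tested clusters, calls numbered 1390 in SB against control (779 to 1644 with an array left out, 876 to 2794 under the alternatives), 1550 in SB+Dox against SB (724 to 2521, 1074 to 3076) and 2265 in SB+Dox against Dox (1614 to 2511, 1882 to 3019). They numbered 1156 in Dox against control (744 to 1305, 816 to 1831), 1146 in SB+Dox against control (644 to 1351, 696 to 1935) and 195 in the interaction (27 to 352, 6 to 678). Median centring moved the split of SB+Dox against SB from 959 higher and 591 lower to 1302 and 415. No background signal was available, so changes of Sorbs2, whose SB mean lay under the 25th percentile of clusters, may be understated.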

Other observations

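Replicate 1 gave the lowest value of its group for 8 of the 10 genes in Dox and for 9 of 10 in SB+Dox, against 5 of 10 in control and 5 of 10 in SB. The share of all clusters with replicate 1 lowest was not computed. The counts therefore cannot separate these genes from a shift of the whole array. The skeletal muscle marker mean of Dox replicate 1 was 10.69, between 10.85 and 10.65 for the other 2, and that of SB+Dox replicate 1 was 10.26, the lowest of its group. Among the Dox arrays Ankrd2 ran from 7.21 to 8.90, a range of 1.69, the widest of any group among the 10 genes.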
